A study of Mus musculus with 2 samples.

Results

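The 10 heat shock chaperone genes Hspa1a, Hspa1b, Hspa8, Hspa5, Hsph1, Hsp90aa1, Hsp90ab1, Dnajb1, Hspd1 and Hspe1 were followed through single-cell transcriptomes of tumor myeloid cells. They were chosen by symbol, because Hspa1b differed in direction between the lineages in these data, and all 10 are among the 28692 genes that the count tables list. The cells were GR-1+ cells, taken with magnetic beads from tumors of the mouse mammary carcinoma line 4T1 grown in the mammary fat pad of BALB/c mice aged 8 to 10 weeks, after digestion of the tumor with collagenase IV and DNase I. In the group 4T1p the tumor was the parental line, which resists anti-PD1, and in the group 4T1m it was a polyclonal population that had been mutagenized with MNNG and responds to it. Both groups received anti-PD1 for 2 weeks, and no library of untreated tumors was analysed here. The antibody GR-1 recognizes Ly6G and Ly6C, so the selection takes granulocytic and monocytic cells together.

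Each group is 1 library of the 10x Genomics 3′ v3 chemistry, so tumor line and library preparation cannot be told apart, and no difference between the libraries was tested. The library labelled 4T1p held 1641 barcodes with a median of 2066 unique molecular identifiers (UMIs), and the library labelled 4T1m held 2749 barcodes with a median of 2763. The study's methods give each of these medians to the other tumor line, so every direction between the libraries rests on the labels of the deposited files and would turn if these were crossed. The libraries shared 0 barcodes. Barcodes with 250 to 5000 genes and up to 27000 UMIs were retained if their mitochondrial share was within the limit set in the study, which left 1128 and 2092 cells. Levels are given as CPM, the summed UMIs of a gene in a group of cells per 1000000 UMIs of that group. Intervals in parentheses are 95% intervals, exact Poisson for CPM and exact binomial for shares and ratios, and they cover counting error only.

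Heat shock proteins bind unfolded or partly folded proteins and help them to fold, to assemble or to be degraded. Cytosolic Hsp70 works in a cycle of ATP binding and release. J proteins such as Dnajb1 start the cycle and deliver the client, exchange factors such as Hsph1 release ADP, and Hsp90 receives part of the clients from Hsp70. Cells keep constitutive forms, Hspa8 for Hsp70 and Hsp90ab1 for Hsp90, and add inducible forms, Hspa1a, Hspa1b and Hsp90aa1, when the transcription factor Hsf1 is active. Hspa5, also called BiP, is the Hsp70 of the endoplasmic reticulum and a target of the unfolded protein response, and Hspd1 and Hspe1 form the folding chamber of mitochondria.

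Clusters of cells, called states below, were built without the chaperones, their co-factors or early-response genes among the variable genes. There were 13 states, of which 6 were monocytic-like (868 cells in the library labelled 4T1p and 1011 in 4T1m) and 5 granulocytic-like (251 and 1024 cells). A B cell-like state (1 and 33 cells) and a T cell-like state (8 and 24 cells) made up the rest. The monocytic-like states lay apart from the granulocytic-like ones in the marker lists: their mean share of cells with a UMI was 46.9% to 86.9% over the 12 monocytic markers, such as Csf1r and C1qa, against 10.2% to 15.7% in the granulocytic-like states. Over the 10 granulocytic markers, such as S100a8 and Cxcr2, granulocytic-like states had 57.5% to 92.4% and monocytic-like states 8.1% to 31.5%. The monocytic-like states 0, 1 and 8, led by Ccl8, Fabp5 and Birc5, were shallow, with medians of 1186, 990 and 1527 UMIs per cell, and 22.6% to 29.0% of their cells had a UMI of Ptprc, the pan-leukocyte gene that encodes CD45. Markers of fibroblasts and tumor epithelium had a UMI in a mean of at most 2.0% of the cells of any of the 11 myeloid states. States are named below by a leading gene, which need not be particular to the state. Against all other cells, Ccdc126 was 11.9-fold higher in the Ccdc126 state and 13.9-fold higher in the Mreg state. Ccl8 was 5.11-fold higher in the Ccl8 state and 8.15-fold higher in the Cd163 state.

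Hspa1a (chr17:34969190-34972156, minus strand, GRCm38) and Hspa1b (chr17:34956436-34959238, minus strand) lie in the same orientation, and their starts are 12918 bases apart. Hspa1a overlaps the predicted gene Gm20481 on the other strand, and the sources used here do not say whether strand was used in counting. The upstream windows of this pair are shown because Hspa1b carried the contrast for which the genes were chosen and Hspa1a is its near-identical neighbor. RefSeq (GRCm38.p6) windows could be matched for 7 of the 10 genes, Hspa1a, Hspa1b, Hspa5, Hsph1, Dnajb1, Hspd1 and Hspe1. In the 250 bases before the starts of Hspa1a and Hspa1b, 247 positions are identical (98.8%). Both hold the motif GAANNTTC, its own reverse complement and the core of the element that heat shock factor binds, beginning 104 bases before the start and shown in capitals.
Hspa1a, chr17:34972157-34972406, minus strand: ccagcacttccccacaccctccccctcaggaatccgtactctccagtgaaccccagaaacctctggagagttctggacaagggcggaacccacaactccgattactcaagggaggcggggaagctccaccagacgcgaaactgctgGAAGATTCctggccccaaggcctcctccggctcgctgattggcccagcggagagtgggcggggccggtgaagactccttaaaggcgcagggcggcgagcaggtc
Hspa1b, chr17:34959239-34959488, minus strand: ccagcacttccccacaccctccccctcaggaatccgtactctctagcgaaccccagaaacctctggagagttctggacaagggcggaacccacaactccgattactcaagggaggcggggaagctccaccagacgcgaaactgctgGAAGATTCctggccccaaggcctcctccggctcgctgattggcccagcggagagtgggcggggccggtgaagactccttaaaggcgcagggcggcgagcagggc
This motif stands in 7.86% of the 32851 windows of 300 bases in the same table. The other arrangement, TTCNNGAA, stands in 8.52% of them, and a run of 3 alternating GAA and TTC units with 2 free bases between them, which overlaps both, in 0.603%. All were searched on both strands.

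Hspd1 (chr1:55077835-55088243, minus strand) and Hspe1 (chr1:55088132-55091307, plus strand) are transcribed away from each other and share 112 bases at their starts. The run of 3 units occurs with 2 overlapping matches in the Hspe1 window, TTCTAGAACCTTC and GAACCTTCCGGAA, beginning 89 and 84 bases before the start, and the same letters lie in a window of Hspd1 on the other strand. Hsph1 (chr5:149614287-149636376, minus strand) has TTCTGGAAAGTTC just after its starts. The window of Hspa5 (chr2:34771970-34777547, plus strand), the gene with an interval above 0 for 4T1m over 4T1p in the most states, holds 1 match to the ER stress element, which is CCAAT and CCACG with 9 free bases between them. The match, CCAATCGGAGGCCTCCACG, begins 65 bases before the RefSeq start, and 0.119% of all windows hold this element on either strand. Any part of this element in the levels of Hspa5 was not tested. None of these motifs was found in the windows of Dnajb1 (chr8:83608193-83612653, plus strand). The places of Hspa8 (chr9:40800984-40810087, plus strand), Hsp90aa1 (chr12:110690605-110702728, minus strand) and Hsp90ab1 (chr17:45567775-45573271, minus strand) are from GENCODE vM21, as are those above.

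The 3′ chemistry reads the end of a transcript, so it matters whether that end is unique. In the last 500 bases of the longest coding transcript of Hspa1a and of Hspa1b, 0 of the 451 windows of 50 bases occurred in a transcript of another gene. The same held for Hspa5, Hsph1, Hsp90aa1, Dnajb1 and Hspd1. For Hspa8, 81.8% of the windows also occurred in transcripts of other genes, led by the predicted gene Gm15459, for Hspe1 53.2% and for Hsp90ab1 7.76%. Levels of Hspa8 and Hspe1 are therefore uncertain.

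The lineages differed more in the summed levels of some chaperones than of others. The constitutive and mitochondrial genes were several-fold higher in monocytic-like cells of both libraries. The summed levels of Hspa1a, Hsp90aa1, Dnajb1 and Hspa5 differed by at most 1.38-fold between the lineages. Hspa8, the constitutive Hsp70, had 2898 CPM (2849 to 2947) in monocytic-like and 500.1 CPM (453 to 551) in granulocytic-like cells of the library labelled 4T1p, and 2656 CPM (2619 to 2694) and 625 CPM (598 to 653) in that labelled 4T1m. The log2 ratio of the lineages was 2.53 (2.39 to 2.68) and 2.09 (2.02 to 2.15). Hsp90ab1, the constitutive Hsp90, had 1591 CPM and 163 CPM in 4T1p and 1724 CPM and 193 CPM in 4T1m, log2 ratios of 3.29 (3.04 to 3.55) and 3.16 (3.04 to 3.28). Both genes were thus high in every monocytic-like group and low in every granulocytic-like group.

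The mitochondrial pair had the same direction, and Hspe1 had the largest lineage ratio of the 10 genes in both libraries. Hspe1 had 423 CPM in monocytic-like against 30.3 CPM in granulocytic-like cells of 4T1p and 346 CPM against 21.5 CPM in 4T1m, log2 ratios of 3.80 (3.23 to 4.43) and 4.01 (3.66 to 4.38). Hspd1 had 167 CPM against 18.2 CPM and 215 CPM against 20.9 CPM, log2 ratios of 3.19 (2.46 to 4.04) and 3.37 (3.01 to 3.74). The exchange factor Hsph1 had 45.0 CPM against 7.28 CPM and 59.9 CPM against 16.1 CPM, with log2 ratios of 2.63 (1.48 to 4.09) and 1.89 (1.47 to 2.34), the first of which rests on 6 UMIs in granulocytic-like cells. These 5 genes were past 2-fold in the same direction in both libraries, as were 46.6% of the 7084 genes with at least 50 UMIs, and 0 of the 10 chaperones was past 2-fold lower (7.83% of those genes). The median log2 ratio of all genes was 0.90 in 4T1p and 1.19 in 4T1m, and relative to it 3 genes, Hsp90ab1, Hspd1 and Hspe1, stayed past 2-fold in both libraries.

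Hspa1a, Hsp90aa1, Dnajb1 and Hspa5 did not share that gap in summed level, and Hspa1b was past 2-fold in 1 library only. Hspa1a had 509 CPM (489 to 530.1) in monocytic-like and 483 CPM (437 to 533) in granulocytic-like cells of 4T1p, and 366 CPM (352 to 380.2) and 429 CPM (406 to 452) in 4T1m. The log2 ratio was 0.08 (-0.08 to 0.23) in the first library and -0.23 (-0.32 to -0.13) in the second, so the sign depends on the library. Of the UMIs of Hspa1a and Hspa1b together, Hspa1a gave 54.9% and 52.9% in monocytic-like and 73.2% and 61.1% in granulocytic-like cells. Hsp90aa1, the inducible Hsp90, had ratios of 0.06 (-0.07 to 0.19) and -0.15 (-0.21 to -0.09). The J protein gene Dnajb1 had 0.18 (-0.12 to 0.49) and -0.34 (-0.52 to -0.16). Hspa5 was somewhat higher in monocytic-like cells of both libraries, at 0.28 (0.17 to 0.39) and 0.46 (0.41 to 0.51), which is below the median of all genes. Hspa1b was past 2-fold in 4T1p only, at 1.24 (0.99 to 1.49) against 0.26 (0.14 to 0.37) in 4T1m. In 4T1p alone 6 of the 10 genes were past 2-fold higher (50.1% of all genes), and in 4T1m 5 (54.4%).

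**Figure D1:**
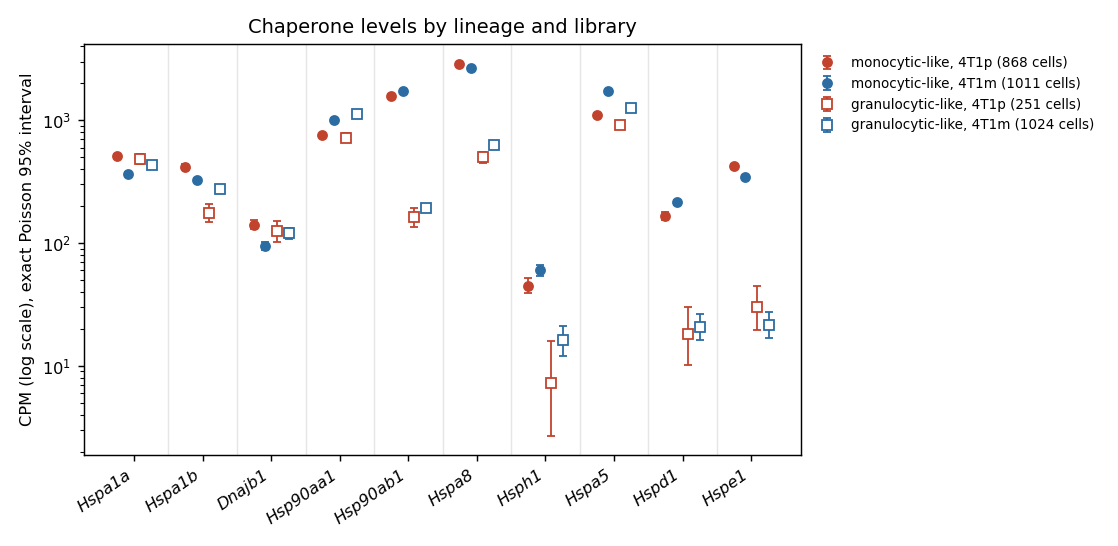
Level of each of the 10 chaperones in CPM (log axis) in monocytic-like (filled circles) and granulocytic-like cells (open squares) of the libraries labelled 4T1p (red) and 4T1m (blue), with exact Poisson 95% intervals. Hsp90ab1, Hspa8, Hsph1, Hspd1 and Hspe1 lie lower in the granulocytic-like cells of both libraries, whereas Hspa1a, Dnajb1, Hsp90aa1 and Hspa5 overlap in range.

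The cytosolic Hsp90 genes changed places between the lineages. Each captured transcript gives a tag at its 3′ end, so the UMIs of the paralogs are given as shares of their sum, not per length. Hsp90aa1 made up 32.1% (31.2 to 33.0) of the Hsp90aa1 and Hsp90ab1 UMIs in monocytic-like and 81.6% (78.6 to 84.4) in granulocytic-like cells of 4T1p. In 4T1m the shares were 37.0% (36.3 to 37.7) and 85.3% (84.2 to 86.4). The constitutive form was the more frequent in monocytic-like cells and the inducible form in granulocytic-like cells of both libraries.

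By state, the share of Hsp90aa1 spanned a wider range than between libraries. In both libraries together it was 27.5% (26.1 to 29.0) in the Ccl8 state, 29.1% (27.2 to 31.0) in the cycling Birc5 state and 49.2% (47.9 to 50.4) in the Thbs1 state, the highest of the monocytic-like states. In 4T1p the Thbs1 state had 55.7% (52.1 to 59.2), so the inducible form was the more frequent there. Among granulocytic-like states it was lowest, 64.7% (61.0 to 68.2), in the state led by Ngp, a granule protein gene of immature neutrophils, and 82.2% (79.8 to 84.5) in the Mirt1 state. It reached 89.7% (87.8 to 91.4) in the Ccdc126 state, 90.3% (88.5 to 91.9) in the Mreg state and 90.6% (88.3 to 92.6) in the state led by Steap4 and Cxcr2. The intervals of the last 3 states overlapped. In the Ngp state of 4T1p, with 30 cells, the share was 48.0% (36.3 to 59.8), against 66.7% (62.8 to 70.4) in 4T1m.

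**Figure D2:**
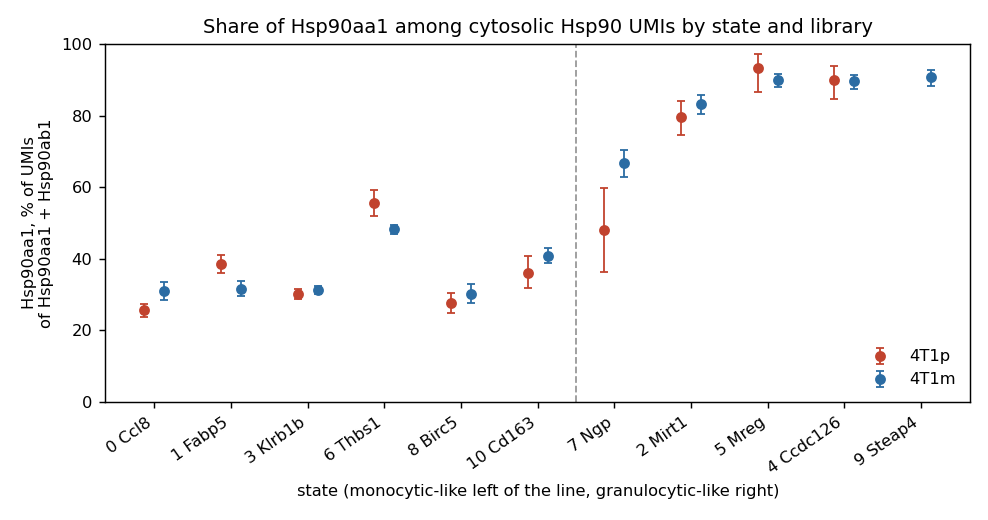
Share of Hsp90aa1 in percent of the UMIs of Hsp90aa1 and Hsp90ab1 in each state (named by its number and a leading gene) of the libraries labelled 4T1p (red) and 4T1m (blue), with exact binomial 95% intervals. The monocytic-like states lie between 25.6% and 55.7%, and the granulocytic-like states other than the Ngp state between 79.6% and 93.3%. The Steap4 state is drawn for 4T1m alone, since 4T1p has 14 of its cells.

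Over granulocytic-like states the inducible Hsp70 pair varied more than the constitutive Hsp70 in both libraries. In 4T1m Hspa1a had 68.8 CPM in the Ngp, 131.7 in the Mirt1, 676 in the Mreg, 1048 in the Ccdc126 and 1352 in the Steap4 state, and Hspa1b had 41.1, 97.9, 334, 705 and 996 CPM in the same order. In 4T1p Hspa1a had 13.0 CPM in the Ngp, 190.3 in the Mirt1, 46.3 in the Mreg and 1758 in the Ccdc126 state, and Hspa1b had 0, 21.5, 0 and 628 CPM. The pair was thus highest in the Steap4 state of 4T1m and in the Ccdc126 state of 4T1p, where the Steap4 state has too few cells to be given, and the Mirt1 and Mreg states changed order between the libraries.

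Hsp90aa1 was also lowest in the Ngp state of both libraries, at 157 CPM in 4T1p and 395 CPM in 4T1m, and reached 1453 CPM in the Ccdc126 state of 4T1p and 2807 CPM in the Steap4 state of 4T1m. Hspa8 went from 301 CPM in the Ngp to 1514 CPM in the Steap4 state of 4T1m, and in 4T1p from 378 CPM in the Mreg to 789 CPM in the Ccdc126 state. Hsp90ab1 lay between 54.0 and 284 CPM in all granulocytic-like states of both libraries. In 4T1p it ran from 54.0 CPM in the Mreg state, on 7 UMIs, to 193 CPM in the Mirt1 state, relatively wider than Hspa8 there. Hspa5 had another order, with its highest level in the Mreg state, at 1296 CPM in 4T1p and 2130.5 CPM in 4T1m, and its lowest in the Ngp state, at 248 and 507 CPM.

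Over monocytic-like states Hspa8 lay between 2272 and 3374 CPM in 4T1p and between 2409.8 and 3070.4 CPM in 4T1m. Hspa1a was lowest in the cycling Birc5 state of both libraries, at 348 CPM in 4T1p and 73.3 CPM in 4T1m, and highest in the Thbs1 state of 4T1p (714 CPM) and the Fabp5 state of 4T1m (662 CPM). Hspa1b was highest in the Cd163 state of 4T1p (839 CPM) and the Fabp5 state of 4T1m (629 CPM), and lowest in the Fabp5 state of 4T1p (302 CPM) and the Birc5 state of 4T1m (64.1 CPM). The Cd163 state of 4T1p has 20 cells, the fewest for which a level is given, and its value rests on 165 UMIs. The rank of the states for the pair therefore differed between the libraries.

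The Birc5 and Thbs1 states stood at opposite ends for Hsp90ab1, Hspd1 and Hspe1 in both libraries. In the Birc5 state Hsp90ab1 had 2359 CPM in 4T1p and 2472 CPM in 4T1m, Hspd1 335 and 464 CPM and Hspe1 598 and 684 CPM, the highest of the monocytic-like states. In the Thbs1 state they had the lowest levels, 1057 and 1454 CPM, 59.2 and 131.8 CPM, and 165 and 239 CPM. The Thbs1 state had the highest Hsp90aa1, 1328 and 1356 CPM, and the highest Hsph1, 81.0 and 93.4 CPM, of the monocytic-like states in both libraries. Hspa5 was highest there in 4T1m, at 2002 CPM, and in the Cd163 state in 4T1p, at 1724 CPM in 20 cells. Dnajb1 was lowest in the Birc5 state of both libraries, at 32.9 and 42.7 CPM.

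**Figure D3:**
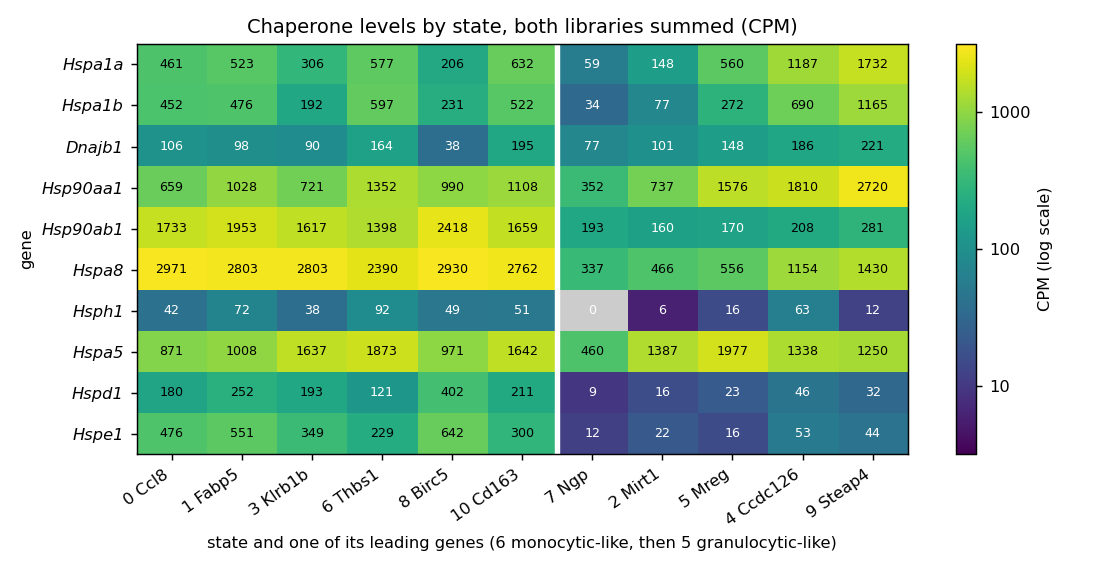
Level of each chaperone in CPM (color on a log scale, value printed in each cell) in the 6 monocytic-like and 5 granulocytic-like states, both libraries summed. Among the granulocytic-like states, Hspa1a, Hspa1b and Hsp90aa1 are lowest in the Ngp and highest in the Steap4 state, most of whose cells are from 4T1m, while Hsp90ab1 stays between 159.7 and 281 CPM. Gray marks a count of 0.

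Between the libraries, Hspa1b was lower in 4T1m than in 4T1p in monocytic-like cells and higher in granulocytic-like cells. This contrast chose the genes and is given as a description. In monocytic-like cells Hspa1b had 418 CPM (399.6 to 437) in 4T1p and 326 CPM (313 to 339.8) in 4T1m, so the log2 ratio was -0.36 (-0.44 to -0.27). In granulocytic-like cells the levels were 177 CPM (149.6 to 208) and 273 CPM (255 to 292), for a ratio of 0.62 (0.37 to 0.89). This ratio moved to 2.57 in cells with a Ptprc UMI, 1.05 at 1000 or more UMIs per cell, 0.31 at no more than 5% mitochondrial UMIs and 0.058 with every cell weighted equally. Its neighbor Hspa1a was lower in 4T1m in both lineages, with log2 ratios of -0.48 (-0.56 to -0.40) and -0.17 (-0.33 to -0.01), but the second turned to 0.19 without the Ccdc126 state and to 0.10 without the Steap4 state. The granulocytic-like value of Hspa1b in 4T1p rests on 146 UMIs in 17 of 251 cells, and 69 of those UMIs lay in a single cell.

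The direction of the pair also depended on how cells were weighted. When every cell was thinned to 1000 UMIs, the share of monocytic-like cells with a Hspa1b UMI was 12.8% (10.1 to 15.8) in 4T1p and 9.10% (7.16 to 11.4) in 4T1m. The share of granulocytic-like cells was 3.93% (1.81 to 7.33) and 7.03% (5.48 to 8.86). The intervals overlapped within each lineage. Thinning left out 304 and 242 monocytic-like and 22 and 85 granulocytic-like cells, and before it the shares were 18.4% and 16.6% and 6.77% and 9.67%. The summed level in monocytic-like cells turned to a log2 ratio of 0.039 after thinning and to 0.18 when each cell counted equally. Without the Klrb1b state it was -0.042, and Hspa1a then stood at 0.13. The groups differ in depth, with medians of 1601 and 3701 UMIs in monocytic-like and 2717 and 2482 in granulocytic-like cells.

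Hspa5 was higher in 4T1m in both lineages. In monocytic-like cells it had 1106 CPM (1076 to 1137) in 4T1p and 1719 CPM (1689 to 1749.7) in 4T1m, which is 0.64 (0.59 to 0.68) on the log2 scale. Granulocytic-like cells held 910.3 CPM (846 to 978) and 1249 CPM (1210.2 to 1288), which is 0.46 (0.34 to 0.57). Hsp90aa1 was higher too, from 753 CPM to 1012 CPM in monocytic-like cells, 0.43 (0.37 to 0.48) on the log2 scale, and from 722 CPM to 1123 CPM in granulocytic-like cells, 0.64 (0.51 to 0.76). Both genes kept that direction under all 16 alternative settings in each lineage. The median log2 ratio of all genes was 0.12 in monocytic-like and 0.07 in granulocytic-like cells.

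The other genes had ratios of both signs. Dnajb1 was lower in monocytic-like cells of 4T1m, 94.6 CPM against 142 CPM, a log2 ratio of -0.58 (-0.74 to -0.42), and had -0.06 (-0.38 to 0.27) in granulocytic-like cells. Hspd1 had 0.37 (0.24 to 0.50) and Hspe1 -0.29 (-0.38 to -0.20) in monocytic-like cells, opposite signs in the counts summed over states. Within the 6 monocytic-like states Hspd1 was higher in 4T1m in 6. Hspe1 was higher in 3, with the interval above 0 in 1 and below 0 in 1, and its lowest ratio was -0.22. In the Thbs1 state both were higher, at 1.15 (0.48 to 1.91) and 0.53 (0.12 to 0.97). In granulocytic-like cells, with 81 and 93 UMIs, Hspd1 and Hspe1 had 0.20 (-0.63 to 1.11) and -0.50 (-1.18 to 0.23). Hsp90ab1 had 0.12 (0.07 to 0.16) and 0.25 (-0.03 to 0.53), and Hspa8 -0.13 (-0.16 to -0.09) and 0.32 (0.17 to 0.48). In these summed counts Hspa8 thus differed in sign between the lineages as Hspa1b did. Within states Hspa8 was higher in 4T1m in 3 of 6 monocytic-like states, with the interval above 0 in 0 and below 0 in 3. It was higher in 3 of 4 granulocytic-like states, with the interval above 0 in 2 and below 0 in 1. Hsph1 had 0.41 (0.17 to 0.66) in monocytic-like cells and 1.15 (-0.07 to 2.66) in granulocytic-like cells, the latter on 57 UMIs.

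All 10 chaperones had at least 50 UMIs in every comparison. In monocytic-like cells 0 of them were past 2-fold between the libraries, where 9.5% of 9022 genes were (7.67% higher and 1.83% lower). In granulocytic-like cells 1, Hsph1, was past it, where 10.4% of 4514 genes were (7.27% higher and 3.12% lower). In monocytic-like cells the counting interval lay above 0 for 5 of the 10 (34.2% of all genes) and below 0 for 5 (18.5%). In granulocytic-like cells it lay above 0 for 4 (20.8%) and below 0 for 1 (14.7%). Counting intervals narrow as UMIs rise, and the 10 genes held 639 to 32512 UMIs in monocytic-like cells. All genes with at least 50 UMIs enter the shares beside them, so the 2 are not matched for depth. The median over the 10 genes was -0.01 and 0.28 on the log2 scale.

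The libraries were also compared within each state, since they differed in the mix of states. In 10 states both libraries had at least 20 cells, and Hspa5 was higher in 4T1m with the interval above 0 in 9 of them. Its log2 ratios ran from 0.31 (0.15 to 0.47) in the Ccl8 state to 0.87 (0.71 to 1.03) in the Thbs1 state and 1.03 (0.64 to 1.45) in the Ngp state, and the Cd163 state had -0.09 (-0.26 to 0.09). Of 769 genes with at least 50 UMIs in each of the 10 states, 3.64% had an interval above 0 in at least 9 states and 2.99% below 0. Hsp90aa1 had intervals above 0 in 7 states and below 0 in 0, Hsp90ab1 in 6 and 0, Hspd1 in 4 and 0, and Hspe1 in 1 and 1. For Hspa8 these counts were 2 and 4, and in the Ngp state it had -0.73 (-1.05 to -0.41). Shares over all genes were computed for at least 9 states only, so whether these lower counts are unusual was not shown.

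The inducible Hsp70 pair had no common direction within states. Summed over Hspa1a and Hspa1b, 4T1m was lower with the interval below 0 in 6 states and higher in 3. Among the 6 monocytic-like states it was lower in 5 and higher in 1, the Fabp5 state. The remaining state with a lower sum, the Ccdc126 state, can turn on 1 cell of 4T1p, as given below. In the Klrb1b state the sum was 858 CPM in 4T1p and 247 CPM in 4T1m, a log2 ratio of -1.79 (-1.92 to -1.67), and in the Birc5 state 759 and 137 CPM, -2.47 (-2.96 to -2.00). In the Fabp5 state it was 667 and 1291 CPM, 0.95 (0.78 to 1.13). The Fabp5 state thus went against the other monocytic-like states. Taken singly, Hspa1a and Hspa1b had opposite signs in the Mirt1, Ccdc126 and Cd163 states, with both intervals off 0 in the Mirt1 state alone. There Hspa1a had -0.53 (-0.99 to -0.06) and Hspa1b 2.19 (1.08 to 3.55), the latter on 7 UMIs in 4T1p.

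In granulocytic-like cells the pair was higher in 4T1m in the Mreg state, at 1009.6 against 46.3 CPM, and in the Ngp state, at 109.8 against 13.0 CPM, but these rest on 6 and 3 UMIs in 4T1p. Hspa1b itself had 0 UMIs in the 39 Mreg and the 30 Ngp cells of 4T1p. Against the level that a floor of 3 counts would give in that library, Hspa1b in 4T1m was 14.4-fold higher in the Mreg and 3.15-fold higher in the Ngp state. These folds are not lower bounds. The lower limits of the counting intervals, 3.54 and 1.29 on the log2 scale, lie below them. In the Ccdc126 state the pair was lower in 4T1m, 1753 against 2386 CPM, a log2 ratio of -0.44 (-0.65 to -0.24). Its level in 4T1p rests on 266 UMIs in 64 cells. Of the 251 granulocytic-like cells of 4T1p, 2 held 50% of the 544 UMIs of the pair, and 1 of them held 155. The direction in the Ccdc126 state can therefore turn on 1 cell. The 14 Steap4 cells of 4T1p held 200 of the 544 UMIs of the pair in its granulocytic-like cells, 36.8%.

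**Figure D4:**
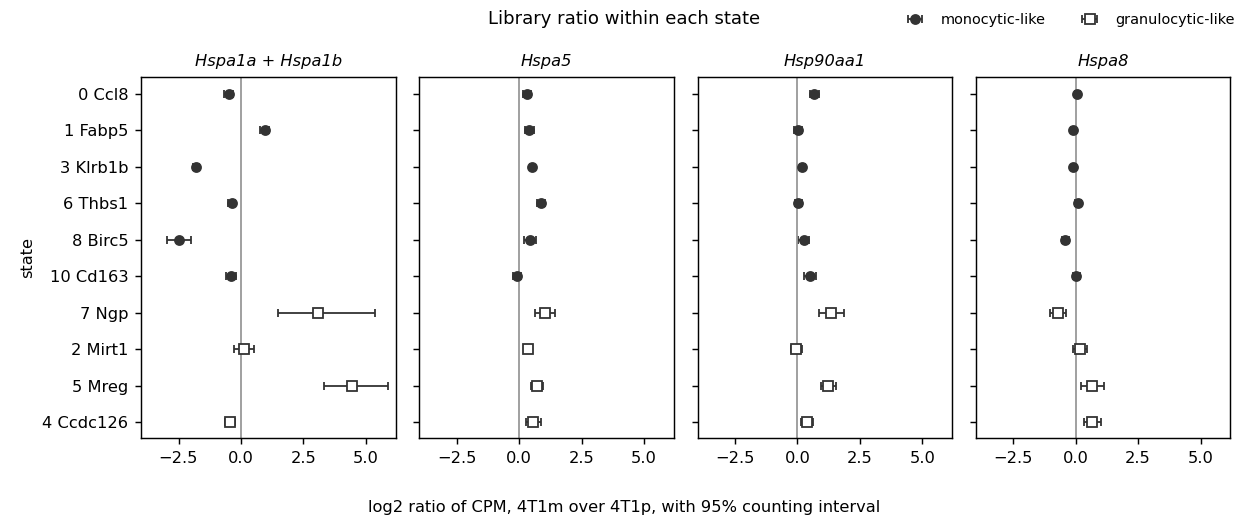
Log2 ratio of CPM, 4T1m over 4T1p, with 95% counting intervals, for Hspa1a and Hspa1b summed, Hspa5, Hsp90aa1 and Hspa8 within the 10 states that have at least 20 cells in both libraries; filled circles are monocytic-like and open squares granulocytic-like states, named by number and a leading gene. The Hspa1a and Hspa1b sum spreads from -2.47 to 4.45, whereas Hspa5 lies between -0.09 and 1.03.

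The chaperones also differed in how evenly their UMIs were spread over cells. In monocytic-like cells, 17 of 868 cells of 4T1p and 18 of 1011 cells of 4T1m held 50% of the Hspa1a UMIs, and 14 and 13 cells those of Hspa1b. In granulocytic-like cells, 2 of 251 cells of 4T1p held 50% of the Hspa1a UMIs, and 14 of 1024 cells of 4T1m. For Hspa8, by contrast, 95 and 143 monocytic-like cells held 50%, and for Hsp90ab1 92 and 143. Few cells were not particular to the pair, since 50% of the Dnajb1 UMIs lay in 16 and 35 monocytic-like cells and those of Hsph1 in 22 and 29. The inducible pair was carried by few cells in every group, so the counting intervals of its levels are narrower than the spread among cells would give.

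The contrast of Hspa1a with Hspa8 was also present with every cell at 1000 UMIs. After thinning, the highest 57 of 564 monocytic-like cells of 4T1p held 88.1% of the Hspa1a and 26.8% of the Hspa8 UMIs, and the highest 77 of 769 of 4T1m held 91.7% and 28.2%. Such shares are also larger for genes of low level. Hspd1, whose variance over these cells was 0.998 times its mean in 4T1p, had 67.7% of its UMIs in its highest 57. The variance of Hspa1a over cells was 4.85 and 6.26 times its mean in monocytic-like and 26.5 and 14.3 times in granulocytic-like cells. For Hsp90ab1 it was 1.55 and 1.53 times in monocytic-like cells, and a gene whose UMIs fell at random would have about equal variance and mean. Hsp90aa1, at 2.56 and 4.39 times in monocytic-like and 2.96 and 8.16 times in granulocytic-like cells, lay in between, and Hspa5 at 1.72 to 3.91 times.

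**Figure D5:**
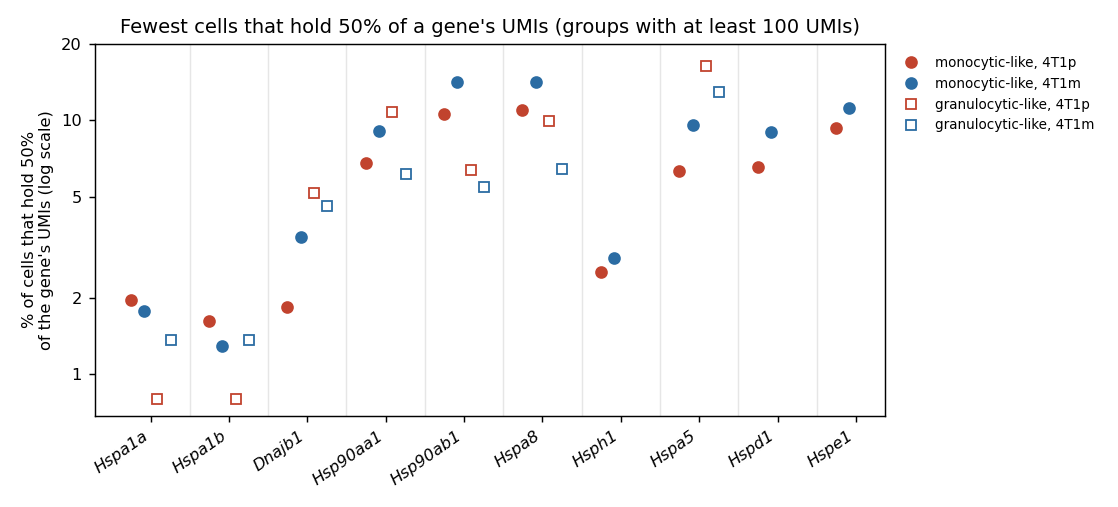
Fewest cells, in percent of the group (log axis), that together hold 50% of the UMIs of each chaperone at the cells' own depth, for monocytic-like (filled circles) and granulocytic-like cells (open squares) of the libraries labelled 4T1p (red) and 4T1m (blue), in the 34 groups with at least 100 UMIs. Hspa1a and Hspa1b lie below 2% in all groups, Dnajb1 lies below 2% in monocytic-like cells of 4T1p, and Hspa8, Hsp90aa1 and Hspa5 lie above 5%.

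Cells with Hspa1a had Hspa1b more often than cells without it. Among thinned monocytic-like cells with a Hspa1a UMI, 56.0% (44.7 to 66.8) had a Hspa1b UMI in 4T1p and 52.5% (42.2 to 62.7) in 4T1m, against 5.21% (3.40 to 7.59) and 2.69% (1.60 to 4.21) of cells without Hspa1a. In granulocytic-like cells it was 29.4% (10.3 to 56.0) and 41.3% (31.1 to 52.1) against 1.89% (0.516 to 4.76) and 3.31% (2.21 to 4.74). Dnajb1 was found in 22.6% (14.2 to 33.0) of monocytic-like cells with Hspa1a in 4T1p and in 5.42% (3.57 to 7.84) of those without, and in 4T1m in 14.1% (7.95 to 22.6) against 5.97% (4.30 to 8.04). Hsp90aa1 and Hspa5 were more frequent as well in monocytic-like cells, at 67.7% (57.5 to 76.7) against 46.3% (42.4 to 50.1) and 72.7% (62.9 to 81.2) against 57.8% (53.9 to 61.5) in 4T1m. In granulocytic-like cells the intervals of Hspa5 overlapped. It had 52.9% (27.8 to 77.0) against 53.8% (46.8 to 60.6) in 4T1p and 60.9% (50.1 to 70.9) against 58.0% (54.6 to 61.3) in 4T1m.

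The gap between monocytic-like cells with and without Hspa1a was smaller for Hspa8 and Hspe1. For Hspa8 most cells without Hspa1a already had a UMI, so the share had little room to rise. Its small gap there cannot show how far Hspa8 goes with Hspa1a. Hspa8 had a UMI in 90.9% (83.4 to 95.8) of monocytic-like cells with Hspa1a and 86.7% (83.9 to 89.2) of those without in 4T1m, and Hspe1 in 31.3% (22.4 to 41.4) and 29.6% (26.1 to 33.2). In granulocytic-like cells of 4T1m, Hspa8 was more frequent in cells with Hspa1a, at 60.9% (50.1 to 70.9) against 30.3% (27.3 to 33.6). No cell type here should lack these genes, so the level that free RNA gives was not measured. The lowest level of Hspa1b in a named cell type was 18.3 CPM, on 3 UMIs in 34 B cell-like cells.

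Over the 21 groups of state and library with at least 20 cells, 3 pairs of chaperones had the most similar levels. Pearson's r of log2(CPM + 10) was 0.97 for Hspd1 and Hspe1, 0.93 for Hspa1a and Hspa1b and 0.93 for Hspa8 and Hsp90ab1. Hsp90ab1 or Hspa8 with Hspe1 or Hspd1 followed closely, at 0.91 to 0.92, so no break set the first 3 pairs apart. These groups share libraries, differ in depth and fall into lineages, so the values describe the groups and carry no test. Among 6300 other genes with at least 200 UMIs, those most like the sum of Hspa1a and Hspa1b were Zfp207 (0.80), Atf3 (0.80), Fos (0.79), March8 (0.79), Rgl2 (0.78). Atf3 and Fos are early-response transcription factors. Those most like Hspa8 were C3ar1 (0.96), Hnrnpl (0.96), Scpep1 (0.95), Dpysl2 (0.95), Rpl22 (0.95), and genes among the 5 most like Hspa5 were Atp2b1 (0.91), M6pr (0.90), Prrc2c (0.89), Prpf38b (0.88).

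Early-response genes, which tissue handling and many signals switch on within minutes, were as a list lower in 4T1m. Of 31 listed genes 29 had at least 50 UMIs in monocytic-like cells, and 7 were past 2-fold lower and 0 higher, with a median log2 ratio of -0.56 against 0.12 for all genes, of which 1.83% were lower and 7.67% higher. In granulocytic-like cells 2 of 28 were past 2-fold lower and 0 higher, with a median of -0.30 against 0.07 for all genes, of which 3.12% were lower and 7.27% higher. The 4 most abundant were Nfkbia, an inhibitor of NF-kB, with log2 ratios of 0.11 (0.08 to 0.14) and -0.47 (-0.51 to -0.43), Junb with -0.81 (-0.85 to -0.78) and -0.81 (-0.87 to -0.74), Btg1 with 0.57 (0.53 to 0.62) and 0.05 (-0.02 to 0.12) and Klf6 with 0.43 (0.38 to 0.47) and 0.02 (-0.08 to 0.13). Junb was thus lower in 4T1m in both lineages, and the others had no common sign.

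The summed level of the early-response list was lower in 4T1m in all 10 states with at least 20 cells in both libraries, whereas that of Hspa1a and Hspa1b was lower in 6 of them. In the Klrb1b state it was 30844 CPM in 4T1p and 18174 CPM in 4T1m, and in the Birc5 state 15155 and 8336 CPM, both lower in 4T1m as the pair was. In the Fabp5 state it was 14209.6 and 9998 CPM, where the pair was higher. The part of early-response activity in the levels of the pair was not tested.

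The other genes of the folding machinery were given as lists. Of 91 listed co-chaperones, chaperonin subunits, ER and mitochondrial folding factors and ubiquitin genes, 89 were found by symbol. In 4T1p 53 of the 78 with enough UMIs were past 2-fold higher in monocytic-like cells, with a median log2 ratio of 1.57, against 50.1% and a median of 0.90 over all genes. In 4T1m 55 of 82 were, with a median of 1.86, against 54.4% and 1.19. The 12 subunits of the chaperonin TRiC and of prefoldin, which fold actin and tubulin, had lineage medians of 2.48 and 2.78. In each library, counted separately, 9 of the 12 were past 2-fold higher. The 3 ubiquitin genes had lineage medians of -0.05 and -0.30.

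Between the libraries, 4 of 82 listed genes were past 2-fold higher in 4T1m and 0 lower in monocytic-like cells, against 7.67% and 1.83% of all genes. In granulocytic-like cells 2 of 52 were higher and 1 lower, against 7.27% and 3.12% of all genes. Those with intervals off 0 in monocytic-like cells were Hspa4l, a relative of Hsph1, at 1.17 (0.90 to 1.44), the collagen chaperone Serpinh1 at 1.33 (0.47 to 2.30), Bag4, a binding partner of Hsp70, at 1.07 (0.21 to 2.01) and the heat shock factor gene Hsf2 at 1.03 (0.33 to 1.77). Serpinh1 rests on 69 UMIs. In granulocytic-like cells they were Dnajb4, a J protein gene, at 1.00 (0.16 to 1.96) and the ubiquitin gene Ubb at -1.04 (-1.11 to -0.97). Ubb, which is heat-inducible, was thus lower in 4T1m granulocytic-like cells, with 1483 against 3050.3 CPM. The ER genes of the list had a median log2 ratio of 0.18 over 24 genes in monocytic-like cells and -0.03 over 17 in granulocytic-like cells. The medians of all genes were 0.12 and 0.07. Past 2-fold were 1 higher and 0 lower of the 24, and 0 of the 17. Intervals lay above 0 for 13 and below 0 for 5 of the 24 (34.2% and 18.5% of all genes). Of the 17 they did so for 4 and 3 (20.8% and 14.7%).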

How the data were processed

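Single-cell libraries of GR-1+ tumor cells (10x Genomics 3′ v3) were deposited as tables of UMI counts, and per the labels the authors made these counts with Cell Ranger against mm10. The file header gives a software version of 3.1.0, which differs from the Cell Ranger version in the study's methods. The files list 28692 genes, and no read or alignment was repeated. The 10 chaperones, the gene lists and the alternatives were chosen with earlier results of these data known.

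Barcodes with 250 to 5000 genes, at most 27000 UMIs and a mitochondrial share within the study's limit were kept. Counts were normalized with sctransform 0.4.2 in Seurat 5.3.0 (R 4.3.3), and clusters were called on 11 principal components at resolution 0.8, with the chaperones, 91 proteostasis and 31 early-response genes left out of the variable genes. Clusters were named from fixed markers, and doublets were not removed in the main values. UMIs were summed per group and expressed as CPM without Gm42418 and AY036118, which carry ribosomal RNA reads. Exact Poisson or binomial 95% intervals cover counting error only. A gene with at least 50 UMIs over both groups counted at 2-fold or more. With 1 library per condition no test was run. Named genes were the 10 chaperones, the listed proteostasis genes past 2-fold with an interval off 0, the 4 most abundant early-response genes, and the 5 genes most like the Hspa1a and Hspa1b sum, Hspa8 and Hspa5, of which 1 is not reported here. Cells were thinned to 1000 UMIs for shares of cells, leaving out shallower ones. The steps after clustering ran in Python 3.11.15 with scanpy 1.11.5, scipy 1.17.1, numpy 2.4.6 and pandas 2.3.3. The ratio intervals were tested on simulated Poisson counts of summed groups. Those counts hold no spread among cells, so the simulation cannot show whether the intervals cover such spread.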

Additional observations from a re-analysis of the deposited data

Results flagged for a closer look

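In the counts summed over states, Hspa1b and Hspa8 differed in direction between the lineages. Within the 6 monocytic-like states Hspa8 was higher in 4T1m in 3, with the interval above 0 in 0 and below 0 in 3. Within 4 granulocytic-like states it was higher in 3, with the interval above 0 in 2 and below 0 in 1. The log2 ratio of 4T1m over 4T1p was -0.36 for Hspa1b and -0.13 for Hspa8 in monocytic-like cells, and 0.62 and 0.32 in granulocytic-like cells. With 1 library per condition, the difference between the lineages was not tested. Barcodes above the mitochondrial limit, which enter no comparison, also held UMIs of the inducible Hsp70 pair. Of the 443 such barcodes of 4T1p and 560 of 4T1m, 286 and 504 were summed. The level of Hspa1a and Hspa1b together was 489.9 CPM and 396 CPM in them, against 879 and 683 CPM in the cells kept.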

How the results depend on the processing

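No paired analysis was possible because each condition is 1 library. The count of chaperones past 2-fold between the libraries in monocytic-like cells rose from 0 to 1 with a fold of 1.5 for a call. In granulocytic-like cells it was 1, and became 0 with the highest Scrublet scores removed, with all variable genes kept and with log-normalization for clusters. It became 2 at 1000 or more UMIs per cell and 3 with a fold of 1.5, and ran from 0 to 2 on leaving out 1 state. Between the lineages 5 chaperones were past 2-fold, and 3 after centring on the median of all genes.

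The Hspa1b ratio in monocytic-like cells (-0.36) was -0.46 in cells with a Ptprc UMI, -0.56 without the highest Scrublet scores, -0.45 at no more than 5% mitochondrial UMIs, -0.48 after centring and -0.55 without the 1% of cells highest in Hspa1a plus Hspa1b. It reversed to 0.18 with cells weighted equally and to 0.039 after thinning, and leaving out 1 state gave -0.74 (without the Thbs1 state) to -0.042 (without the Klrb1b state). In granulocytic-like cells (0.62) it was 2.57 in cells with a Ptprc UMI, 0.31 at the 5% limit, 1.05 at 1000 or more UMIs, 0.058 with equal weights and 0.90 without the highest 1% of cells, and leaving out 1 state gave 0.28 (without the Mirt1 state) to 1.18 (without the Steap4 state). The Hspa1a ratio reversed to 0.042 with equal weights and 0.13 without the Klrb1b state in monocytic-like cells, and to 0.59 without the highest 1% of cells and 0.19 without the Ccdc126 state in granulocytic-like cells. Hsp90ab1 in monocytic-like cells came to -0.0031 after centring. The causes were not tested. Hspa5 and Hsp90aa1 kept their sign under all 16 alternatives in both lineages. Depth limits Hsph1, Hspd1 and Hspe1 in granulocytic-like cells, which rest on 57, 81 and 93 UMIs.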
